A study of Rattus norvegicus with 29 samples.

Results

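Krüppel-like factors are zinc finger transcription factors, and 6 of them, Klf2, Klf4, Klf6, Klf9, Klf10 and Klf15, were followed in the nucleus accumbens shell of rats that drank ethanol. All probe sets that the platform's probe-to-gene table pairs with exactly 1 of these 6 symbols were taken, which gave 16 of the 31099 probe sets of the array (6 of 14217 genes that a probe set reads alone). Klf2 had 5 of them, Klf6, Klf9 and Klf15 had 3 each, and Klf4 and Klf10 had 1 each. The probe sets of a gene were kept apart, because they read different stretches of transcript and their levels cannot be set against each other. In all, 12 of the 16 were bright enough to be tested (4 for Klf2, 2 each for Klf6, Klf9 and Klf15, and 1 each for Klf4 and Klf10), and the other 4 are given by their values alone.

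RNA of the shell was hybridised to 29 Affymetrix rat arrays. The groups were 10 samples from animals with continuous ethanol, 10 with limited ethanol access and 9 with water only. Animals of all groups, water included, were alcohol-preferring (P) rats, a line selected over generations for voluntary ethanol intake, so the comparisons concern drinking within that line. The labels give no age, sex, ethanol dose or duration, and they do not say that each sample was 1 animal. The p-values therefore rest on variation among the samples as given, part of which may be technical.

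The nucleus accumbens shell is a region of the ventral striatum that takes part in reward, and most of its neurons are medium spiny neurons. The 14 tested markers of these neurons (Drd1, Drd2, Penk and others) had a mean log2 level between 11.35 and 11.77 in the arrays. Array medians lay between 8.17 and 8.21, and correlations between arrays lay between 0.986 and 0.998. The second principal component held 16.5% of the variance. On it 5 arrays lay apart at the low end (limited replicates 6 and 7 and water replicates 2, 5 and 6). Results that they change are given without them, which removes water and limited arrays but no continuous array. Continuous replicate 4 lay far out at the high end (20.18, with the next array at 10.90) and was kept in those fits.

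Krüppel-like factors bind GC-rich and CACCC-containing DNA through zinc fingers at their C-terminal end, while their N-terminal parts recruit different activators or repressors. Several are induced quickly by outside signals. Klf2 and Klf4 answer blood flow in vascular endothelium, Klf6 and Klf10 answer injury, growth factors and TGF-beta, and Klf9 and Klf15 answer glucocorticoids, with Klf9 also induced by thyroid hormone in the brain. In neurons, Klf4 and Klf9 are known as restraints on axon growth and Klf6 as a factor that favours it.

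On assembly GRCr8, Klf2 lies at chr16:17555136-17557768, Klf4 at chr5:75074107-75079182, Klf6 at chr17:69449483-69458478, Klf9 at chr1:230126646-230151641, Klf10 at chr7:71352612-71358680 and Klf15 at chr4:124522652-124535613. Start site sequences of 4 of the 6 genes (Klf4, Klf6, Klf9 and Klf15) were matched by symbol in a RefSeq table of that assembly, and those with an E-box or a CRE-type match are shown, since clock and cAMP signals act through such letters on other genes. The motifs were searched on both strands in the 250 bases before each start site. The Klf6 sequence, chr17:69458479-69458728 on the minus strand, has an E-box (CACGTG, capitals) whose first base is 56 bases before the start. The Klf9 sequence, chr1:230126396-230126645 on the plus strand, has a CRE-type TGACG (capitals) 79 bases before the start. For Klf15 only chr4:124522902-124522931 on the plus strand is shown, because the table's start site lies inside the annotated gene, and its capitals mark CGTCA and CACGTG, which overlap.
Klf6: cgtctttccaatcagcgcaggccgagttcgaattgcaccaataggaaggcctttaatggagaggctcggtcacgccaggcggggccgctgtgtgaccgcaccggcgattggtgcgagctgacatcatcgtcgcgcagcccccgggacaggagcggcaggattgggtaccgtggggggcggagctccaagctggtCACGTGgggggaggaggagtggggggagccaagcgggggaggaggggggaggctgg
Klf9: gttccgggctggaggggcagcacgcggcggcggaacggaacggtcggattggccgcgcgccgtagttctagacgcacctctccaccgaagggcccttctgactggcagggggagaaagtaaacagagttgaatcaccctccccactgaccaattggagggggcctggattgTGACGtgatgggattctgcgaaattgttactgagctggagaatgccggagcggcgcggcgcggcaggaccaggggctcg
Klf15: cgcccgcggCGTCACGTGagcggtcggaga

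Of 27457 promoters with windows of that length, 5.79% held CACGTG and 19% held TGACG or its reverse CGTCA. The Klf15 window had a second CGTCA outside the stretch shown, 176 bases before the table's start site. Neither motif was found in the Klf4 window, and the full CRE (TGACGTCA, in 1.7% of promoters), a core of glucocorticoid receptor sites (TGTTCT, in 17.1%) and a consensus serum response element (in 0.0364%) were found in none of the 4. The CACCC box, a letter sequence that Krüppel-like factors bind, was present once in the Klf9 and once in the Klf15 window, against 49.4% of all promoters with at least 1. A match describes these letters and is no measurement of binding.

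The first comparison asked which genes differed between continuous ethanol and water. None of the 12 tested Klf probe sets passed the threshold of an adjusted p of 0.05 (limma, adjusted by the Benjamini-Hochberg method over all 21729 tested probe sets), where 33 probe sets or 0.152% passed over the whole array. The smallest adjusted p of a member was 0.145. At an unadjusted p under 0.05 there were 7 of the 12, against 16.1% of all tested probe sets. Of these 7, 5 had the higher mean in continuous arrays (9.62% over the array) and 2 had the lower mean (6.48%). The median difference of the 12 was 0.05 on the log2 scale, against 0.00 over all tested probe sets, and the median size of the difference without its sign was 0.13 against 0.05. The genes had been picked with earlier results of these arrays known, so these shares describe them and support no statement about Krüppel-like factors in general.

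**Figure D1:**
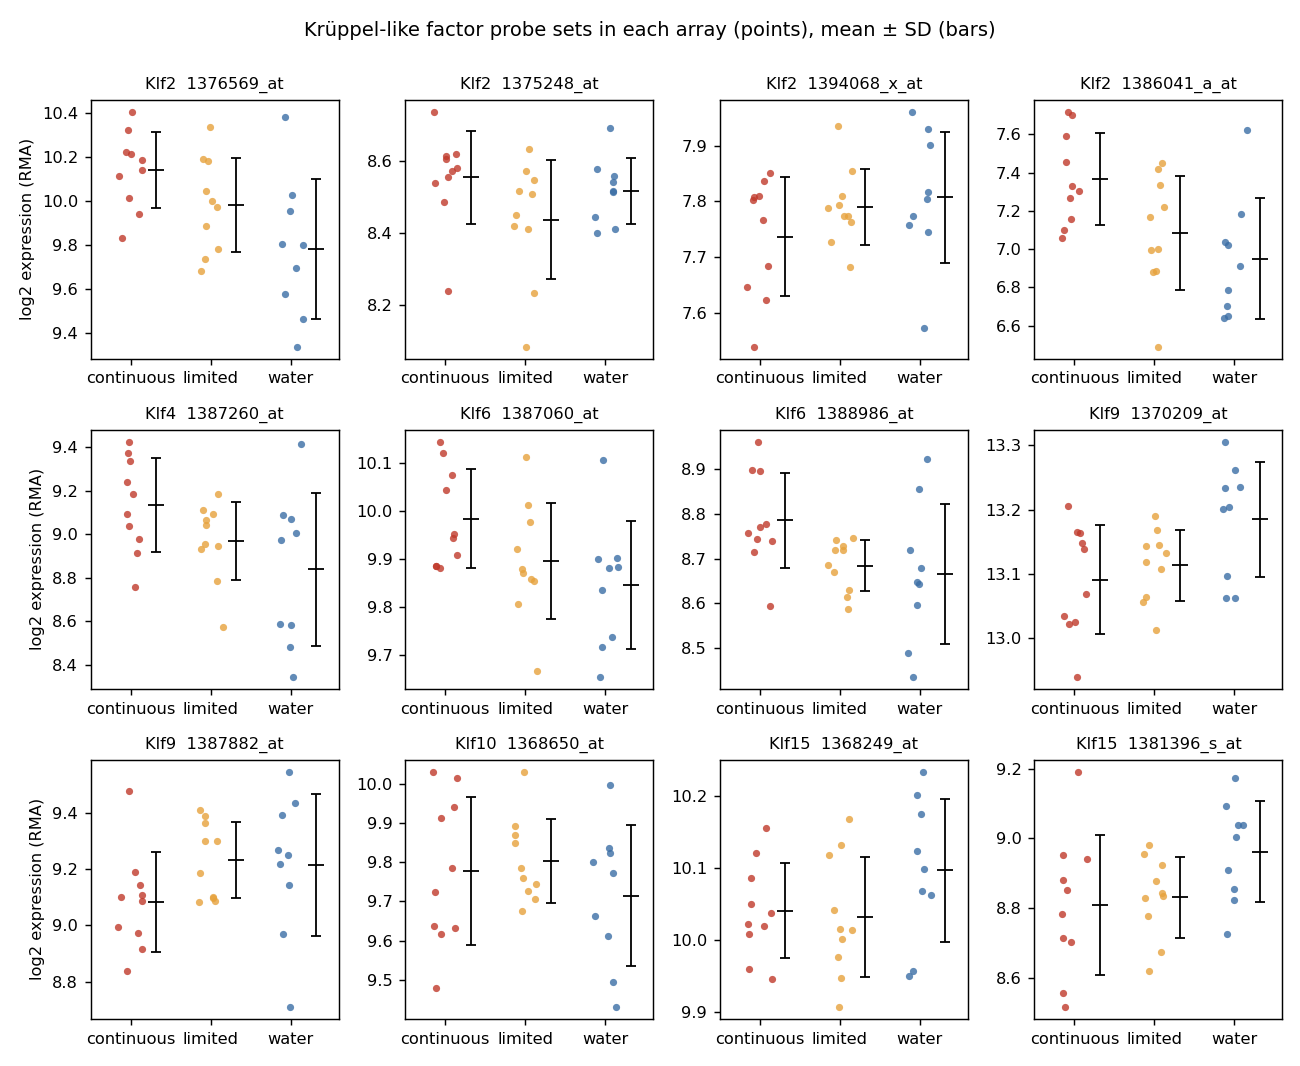
Log2 expression of the 12 tested Klf probe sets in each array (points) of the continuous, limited and water groups, with mean ± SD (bars, n = 10, 10 and 9). Each panel has its own axis, which does not begin at 0, and in every panel the groups overlap.

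Klf2, a factor that keeps vascular endothelium quiescent, had the members' smallest p. Its probe set 1376569_at had a lowest, median and highest log2 level of 9.83, 10.17 and 10.41 in continuous arrays, 9.68, 9.99 and 10.34 in limited arrays, and 9.33, 9.80 and 10.38 in water arrays. All 10 continuous arrays lay above the water mean, yet the groups overlapped, since 1 water array reached nearly the highest continuous value. Continuous arrays averaged 10.14 ± 0.17 and water arrays 9.78 ± 0.32 (SD), a difference of 0.36 ± 0.10 (SE) with a 95% interval of 0.14 to 0.57, or 1.28-fold. It was number 273 of all probe sets by p (0.00183), with an adjusted p of 0.145.

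The Klf2 probe set 1386041_a_at, whose suffix marks probes shared by transcript variants of a gene, gave a like difference. Its lowest, median and highest levels were 7.06, 7.32 and 7.72 in continuous arrays, 6.49, 7.09 and 7.45 in limited arrays, and 6.64, 6.91 and 7.62 in water arrays. The difference of continuous from water was 0.42 ± 0.12 (p = 0.00199, adjusted p = 0.149), with all 10 continuous arrays above the water mean and with overlap of the groups. Across the 29 arrays this probe set followed 1376569_at with r = 0.83 (0.78 with group means removed).

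The other Klf2 probe sets had smaller differences, none with an unadjusted p under 0.05 where tested. For 1375248_at the difference of continuous from water was 0.04 ± 0.06 (adjusted p = 0.788), with levels from 8.24 to 8.74 in continuous arrays and from 8.40 to 8.69 in water arrays. For 1394068_x_at, whose suffix marks probes that may bind other transcripts, it was −0.07 ± 0.05 (adjusted p = 0.448). Over the arrays they followed 1376569_at with r = 0.28 and 0.20, and with group means removed with r = 0.29 and 0.44. The dim probe set 1386040_at, under the filter, averaged 5.63 ± 0.09 in continuous arrays and 5.76 ± 0.14 in water arrays. The log2 level of 1376569_at minus that of 1375248_at was 1.58 in continuous arrays and 1.26 in water arrays on average. That difference of 0.32 had an exact permutation p of 0.00922 and an adjusted p of 0.111 over 12 such tests, so a disagreement between Klf2 probe sets did not pass the correction.

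Klf4, which shares endothelial targets with Klf2 and is one of the factors used to reprogram cells to pluripotency, was read by 1387260_at alone. Its lowest, median and highest levels were 8.76, 9.14 and 9.43 in continuous arrays, 8.57, 8.998 and 9.19 in limited arrays, and 8.34, 8.97 and 9.41 in water arrays. In 9 of 10 continuous arrays it lay above the water mean, and the highest water array came close to the upper end of the continuous group. The difference was 0.30 ± 0.11 (95% interval 0.07 to 0.52, p = 0.0126, adjusted p = 0.209).

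Klf6, a factor induced by injury in many tissues, differed by less, with narrower spread. Probe set 1387060_at had a lowest, median and highest level of 9.88, 9.95 and 10.14 in continuous arrays, 9.67, 9.87 and 10.11 in limited arrays, and 9.65, 9.88 and 10.10 in water arrays. All 10 continuous arrays were above the water mean, and the groups overlapped over most of the continuous range. The difference from water was 0.14 ± 0.05 (p = 0.016, adjusted p = 0.218). Probe set 1388986_at gave 0.12 ± 0.05 (p = 0.0258, adjusted p = 0.249), with 9 of 10 continuous arrays above the water mean. The dim 1395557_at averaged 6.70 ± 0.23 in continuous arrays and 6.58 ± 0.24 in water arrays. The 2 tested Klf6 probe sets followed each other with r = 0.60.

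Klf10, first described as a gene induced early by TGF-beta, was read by 1368650_at. Its lowest, median and highest levels were 9.48, 9.75 and 10.03 in continuous arrays, 9.68, 9.77 and 10.03 in limited arrays, and 9.43, 9.77 and 10.00 in water arrays. The medians lay close together and the groups overlapped, with the limited arrays in the narrowest range. The difference of continuous from water was 0.06 ± 0.07, with a 95% interval of −0.08 to 0.21 (adjusted p = 0.687).

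Klf9, also known as basic transcription element binding protein 1, had its differences in the other direction. Probe set 1370209_at had a lowest, median and highest level of 12.94, 13.10 and 13.21 in continuous arrays, 13.01, 13.13 and 13.19 in limited arrays, and 13.06, 13.20 and 13.31 in water arrays. In 9 of 10 continuous arrays it lay below the water mean, and the groups overlapped. The difference was −0.09 ± 0.04 (p = 0.0182, adjusted p = 0.226), a 0.937-fold level. For 1387882_at the difference was −0.13 ± 0.08 (adjusted p = 0.436), also with 9 of 10 arrays below. The dim 1390076_at ranged from 5.23 to 5.59 in continuous arrays and from 5.55 to 5.74 in water arrays. All 10 continuous arrays lay below the water mean there, but the probe set was under the filter and was not tested.

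Klf15, known for switching on amino acid breakdown under glucocorticoids and fasting, had 2 tested probe sets that were each lower on average in continuous than in water arrays. For 1381396_s_at, whose suffix marks probes shared with other transcripts, the lowest, median and highest levels were 8.52, 8.82 and 9.19 in continuous arrays, 8.62, 8.84 and 8.98 in limited arrays, and 8.73, 9.005 and 9.17 in water arrays. The highest single value was in a continuous array, although 9 of the 10 lay below the water mean. The difference was −0.15 ± 0.07 (p = 0.0366, adjusted p = 0.28). For 1368249_at it was −0.06 ± 0.04 (adjusted p = 0.489). The dim 1381395_at averaged 5.40 ± 0.07 in continuous arrays and 5.39 ± 0.15 in water arrays.

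Limited ethanol access was compared with water in the same fit. None of the 12 tested Klf probe sets passed, and 0% of all tested probe sets did. At an unadjusted p under 0.05 there were 0 of 12 members, against 4.44% of all (2.1% with the higher and 2.34% with the lower mean in limited arrays). The smallest adjusted p of a member was 0.972. The Klf2 probe set 1376569_at differed by 0.20 ± 0.10 with a 95% interval of −0.01 to 0.41, and 7 of 10 limited arrays were above the water mean. Klf4 differed by 0.13 ± 0.11, Klf6 1387060_at by 0.05 ± 0.05 and Klf10 by 0.09 ± 0.07. Klf9 1370209_at differed by −0.07 ± 0.04 and Klf15 1381396_s_at by −0.13 ± 0.07, each with 9 of 10 limited arrays below the water mean.

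Continuous and limited ethanol were then set against each other. None of the 12 Klf probe sets passed, where 1 probe set or 0.0046% did over the array. The Klf2 probe set 1386041_a_at was the 1 member with an unadjusted p under 0.05, against 9.31% of all tested probe sets (5.74% with the higher and 3.56% with the lower mean in continuous arrays). Its difference of continuous from limited was 0.28 ± 0.12 (p = 0.0245, adjusted p = 0.526), with 9 of 10 continuous arrays above the limited mean. The 3 prime minus 5 prime log2 signal of actin, a measure of RNA quality, averaged 1.27 ± 0.08 in continuous and 1.17 ± 0.09 in limited arrays (SD). The RNA quality covariate was the mean of this signal and that of GAPDH, 0.57 ± 0.06 in continuous and 0.50 ± 0.05 in limited arrays. With it the difference of 1386041_a_at was 0.28, and 0 of the 12 Klf probe sets had an unadjusted p under 0.05. Over the whole array 0 probe sets then passed the threshold, and the share at an unadjusted p under 0.05 is not given for this fit. The change from 1 member to 0 therefore cannot be set against the whole array, and its cause was not tested. Klf2 1376569_at differed by 0.16 ± 0.10 and Klf4 by 0.17 ± 0.11. The intervals of Klf15 1368249_at (−0.07 to 0.09) and Klf9 1370209_at (−0.10 to 0.05) were the narrowest of those named here, and both held 0.

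Both comparisons with water use the same 9 water arrays, so their values are given side by side and not as separate evidence. For Klf2 1376569_at, Klf4 and Klf6 1387060_at the order of the means was continuous, limited, water, and no neighbours in that order differed past the threshold. For Klf9 1370209_at the mean was lowest in continuous arrays and highest in water arrays, with −0.02 between continuous and limited. For Klf15 1381396_s_at the order was the same as for Klf9, again with −0.02 between continuous and limited.

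**Figure D2:**
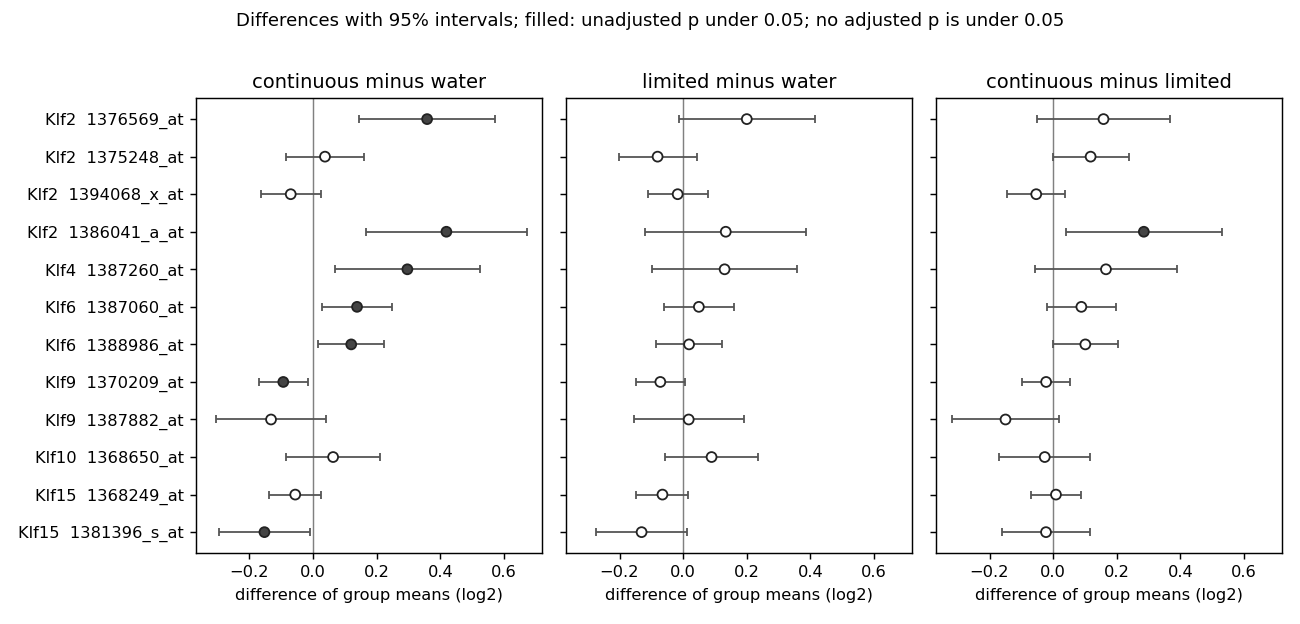
Difference of group means on the log2 scale (x axis) with 95% intervals for the 12 tested Klf probe sets in the 3 comparisons. Filled points have an unadjusted p under 0.05 (7, 0 and 1 of 12), and no point has an adjusted p under 0.05.

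The Klf genes were also compared with each other over the 29 arrays, on the probe set of highest mean of each gene. There were 21 relations, which included the level of vascular markers described next, and p-values come from 100000 permutations with Benjamini-Hochberg adjustment over the 21. Klf2 and Klf4 moved together, with r = 0.84 and Spearman's rho = 0.80 (permutation p = 1e-05 for both, the smallest they can give, adjusted p = 0.00021). With group means removed r was 0.79, and within the continuous, limited and water groups it was 0.87, 0.65 and 0.83. Without the 2 arrays farthest from the Klf2 median r was 0.76, and without the 5 arrays that lay apart it was 0.84.

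Klf6 and Klf10 formed the second pair, with r = 0.61 (permutation p = 0.00042, adjusted p = 0.00441) and rho = 0.54 (permutation p = 0.00267, adjusted p = 0.028). Within the continuous, limited and water groups r was 0.75, 0.74 and 0.54, and with group means removed it was 0.64. Without the 2 arrays farthest from the Klf6 median r was 0.60. Klf6 with Klf2 (r = 0.48) and with Klf4 (r = 0.47) had adjusted permutation p-values of 0.0499 each. These relations did not hold in every group, since r was −0.24 and −0.17 in the continuous group. With group means removed both had an adjusted permutation p of 0.351, and neither was retried under the processing alternatives. Klf9 and Klf15 had r = 0.41, and Klf4 and Klf9 had r = −0.41 (adjusted permutation p = 0.102 each). Without the 5 arrays that lay apart these were 0.25 and −0.58. Both had the other sign in the limited group (−0.12 and 0.74).

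Because Klf2 and Klf4 are strongly expressed in endothelium, vascular content was read beside them from 17 tested endothelial and mural markers of 19 listed. In bulk tissue, fewer cells of a type and less RNA per cell cannot be told apart. The mean log2 level of these markers ranged from 9.20 to 9.59 in continuous arrays, from 9.43 to 9.70 in limited arrays and from 9.47 to 9.93 in water arrays. In limited against water arrays 15 of the 17 had the lower mean, with a median difference of −0.10 and 0 past the threshold. In continuous against water arrays 16 of the 17 had the lower mean, with a median difference of −0.16, and 2 of the 17 fell past the threshold. These were Adgrl4, an adhesion receptor of endothelium (−0.37, adjusted p = 0.0143), and Slc2a1, which carries glucose across brain endothelium (−0.21, adjusted p = 0.0492). Both calls were lost without the 5 arrays that lay apart (−0.28 and −0.14). So the group means of Klf4 and of Klf2 1376569_at and 1386041_a_at differed in the opposite direction to most of the vascular markers, while those of Klf2 1394068_x_at and 1386040_at were lower in continuous arrays, like the markers. With the marker level as a covariate, chosen with earlier results known, 21 probe sets passed over the whole array for continuous against water. Among the tested Klf probe sets 3 passed. These were Klf2 1376569_at (0.61, adjusted p = 0.000217), Klf2 1386041_a_at (0.61, adjusted p = 0.0353) and Klf4 (0.50, adjusted p = 0.0439). The covariate itself differed between the groups, so the size of the adjusted differences rests on how it is modelled. With array weights in place of the covariate 2 passed, Klf2 1376569_at (0.51, adjusted p = 0.00693) and 1386041_a_at (0.53, adjusted p = 0.033). The count over the whole array with these weights is not given here.

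Within groups Klf2 followed the vascular markers. The pooled correlation was r = 0.30 (rho = 0.26, adjusted permutation p = 0.297 and 0.411), while it was 0.85, 0.71 and 0.78 within the continuous, limited and water groups and 0.77 with group means removed (adjusted permutation p = 0.000105). Klf4 had a pooled r of 0.25, with 0.77, 0.53 and 0.55 within the continuous, limited and water groups and 0.61 with group means removed (adjusted permutation p = 0.00908). The Klf4 relation no longer passed without continuous replicate 3 (r = 0.55, adjusted permutation p = 0.064) or without water replicate 2 (r = 0.47, adjusted permutation p = 0.0829). For Klf6, Klf9, Klf10 and Klf15 the relation with these markers, with group means removed, lay between −0.16 and 0.23 and did not pass. Markers of the leptomeninges, the thin membranes on the brain surface, were also lower on average in continuous than in water arrays in 15 of 15, with a median difference of −0.32 and 0 past the threshold. The same held in limited against water arrays, with 15 of 15 lower, a median difference of −0.28 and 0 past the threshold. Lower means were not particular to these 2 lists. In continuous against water arrays 12 of 14 medium spiny neuron, 7 of 9 astrocyte, 7 of 9 microglia and 6 of 9 oligodendrocyte markers had the lower mean. Cortical neuron markers had the higher mean in 5 of 7, and 0 markers of these other lists passed the threshold.

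**Figure D3:**
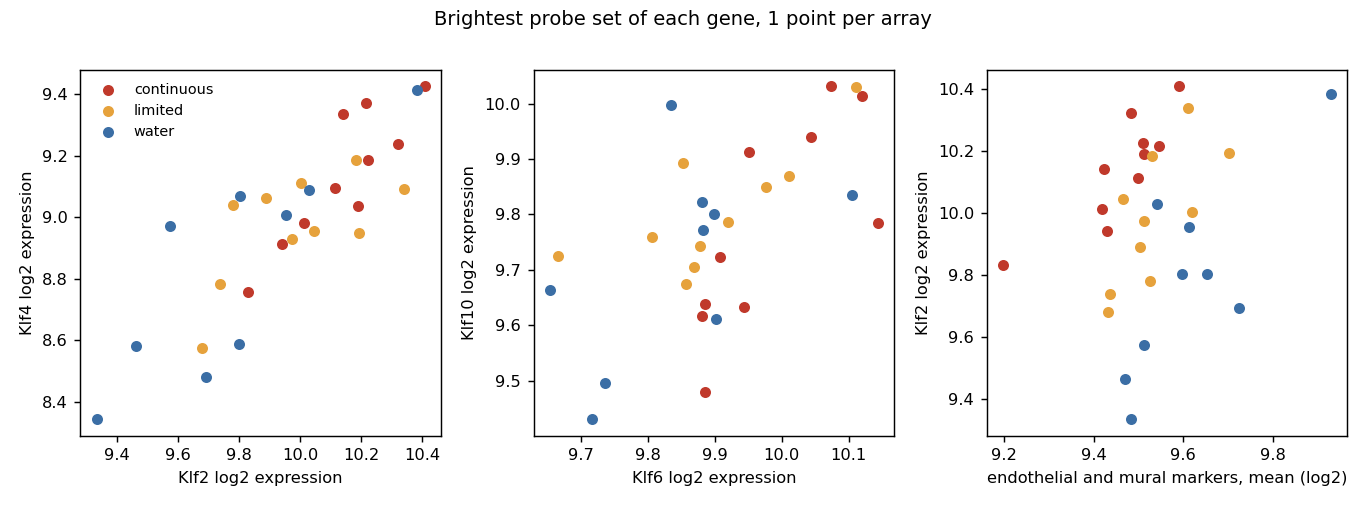
Log2 expression of Klf4 against Klf2, of Klf10 against Klf6, and of Klf2 against the mean level of 17 endothelial and mural markers, with 1 point per array and the group by colour. The first 2 panels have r = 0.84 and 0.61, and in the last the continuous arrays lie to the left of water arrays of the same Klf2 level.

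The genes most like each Klf gene over the 29 arrays were found by Pearson's r, as a description without a p. Nearest to Klf2 were Ier2 (r = 0.84), an immediate early gene, Klf4 (0.84) and Dusp1 (0.73), a phosphatase that switches off MAP kinases. Nearest to Klf4 were Klf2 (0.84), Ier2 (0.76) and Rell1 (0.74). Nearest to Klf6 were Jun (0.84), a subunit of AP-1, Dyrk2 (0.77) and Stk40 (0.76). The neighbours of Klf10 were Anxa11 (0.81), Cck (0.79), which encodes the neuropeptide cholecystokinin, and Bdnf (0.79), a neurotrophin. Nearest to Klf9 were Nucks1 (0.72), Wdr26 (0.71) and Hlf (0.71), a clock-output factor, and nearest to Klf15 were Ctsb (0.61), Ehd4 (0.60) and Raly (0.58). The arrays share tissue and normalization, so a high r says only that the values varied together.

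Of these neighbours Ier2 and Dusp1 rose in continuous against water arrays. Ier2 ranged from 8.50 to 8.99 in continuous arrays and from 8.11 to 8.76 in water arrays, a difference of 0.41 ± 0.07 (adjusted p = 0.00821). The Dusp1 neighbour, probe set 1368147_at, had a difference of 0.50 (adjusted p = 0.0257), and of 0.51 with an adjusted p of 0.0831 without the 5 arrays that lay apart. The Klf2 probe sets 1376569_at and 1386041_a_at had differences from water of 0.36 and 0.42, near that of Ier2. Their water arrays had an SD of 0.32 and 0.31, against 0.18 for Ier2. The other tested Klf2 probe sets, 1375248_at and 1394068_x_at, differed by 0.04 and −0.07. Why Ier2 passed and Klf2 did not was not tested.

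Other members of the Krüppel-like family did not pass in any comparison. Of 8 tested (of 11 listed), 4 had the higher and 4 the lower mean in continuous against water arrays, with a median difference of −0.01. Klf11, a TGF-beta-inducible relative of Klf10, had 0.11 ± 0.05 (adjusted p = 0.265), and Klf1, the erythroid member, had −0.06 ± 0.09 (adjusted p = 0.734). In limited against water arrays Klf3 had −0.05 and Klf1 had 0.10, and in continuous against limited arrays Klf1 had −0.16 and Klf11 had 0.09. Of the related Sp genes 2 of 9 were tested. Sp2 had 0.21 ± 0.07 (adjusted p = 0.159) and Sp1 had −0.05 ± 0.04 (adjusted p = 0.557) in continuous against water arrays, and neither passed in the other comparisons.

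Among 15 tested immediate early transcription factor genes, the class that Klf2, Klf4, Klf6 and Klf10 resemble in their quick induction, 4 rose in continuous against water arrays and 0 fell. They were Fos (0.79 ± 0.12, adjusted p = 0.0012), Nr4a1 (0.70 ± 0.09, adjusted p = 0.000105), Ier2 and Junb (0.34 ± 0.06, adjusted p = 0.00506). The median of the list was 0.14 (13 of 15 higher), and in limited against water arrays it was 0.16 (12 of 15 higher). In the other comparisons 0 of 15 passed, although Nr4a1 (0.47 ± 0.09, adjusted p = 0.234) and Junb (0.28 ± 0.06, adjusted p = 0.316) were above the water mean in 10 of 10 limited arrays. Nr4a1 passed with array weights (0.45, adjusted p = 0.0206). Continuous against limited arrays gave 0.34 for Fos, 0.23 for Nr4a1 and 0.18 for Ier2, each with an adjusted p of 0.526.

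Of 14 tested TGF-beta response genes, the pathway that induces Klf10, 1 rose. This was Tgif1, a repressor of Smad-driven transcription (0.28 ± 0.06, adjusted p = 0.0235, and 0.26 with no call without the 5 arrays that lay apart), and Smad3, a signal carrier of the pathway, had −0.13 ± 0.04 (adjusted p = 0.158). The list's median was 0.03. In limited against water arrays Tgif1 had 0.18 and Smad3 −0.08, and in continuous against limited arrays Smad6 had −0.12, none of which passed.

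Of 19 tested glucocorticoid response genes, the hormone class that induces Klf9 and Klf15, 1 rose and 1 fell in continuous against water arrays, with a median of −0.09. Dusp1 rose (0.50 ± 0.08 on probe set 1368146_at, adjusted p = 0.00245), a gene that many other signals also induce. Angptl4, a secreted inhibitor of lipoprotein lipase, fell by 0.31 (SE 0.06, adjusted p = 0.0165), a call that did not hold without the 5 arrays that lay apart (−0.27). Fkbp5, a chaperone partner of the glucocorticoid receptor and a standard target of it, had −0.24 ± 0.06 (adjusted p = 0.101), with 9 of 10 continuous arrays below the water mean. It passed with array weights (−0.22, adjusted p = 0.033) and without continuous replicate 7 (−0.27, adjusted p = 0.023). In limited against water arrays Dusp1 had 0.28 and Fkbp5 −0.18, and in continuous against limited arrays Angptl4 had −0.19 and Dusp1 0.23, none past the threshold.

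Of 18 tested clock and clock-output genes, a group to which Klf9, Klf10 and Klf15 have been tied as rhythmic outputs, 0 passed in any comparison. The median in continuous against water arrays was −0.01. Per2, a core clock repressor, ranged from 10.40 to 10.66 in continuous arrays and from 10.67 to 10.90 in water arrays, and these groups did not overlap. Its difference of −0.23 ± 0.05 had an adjusted p of 0.0547. Per3 had −0.15 ± 0.06 (adjusted p = 0.238), while Per1, which glucocorticoids also induce, had 0.00 ± 0.05 (adjusted p = 0.984). In the other comparisons the smallest p-values belonged to Rorb (−0.12) and Tef (−0.07) for limited against water and to Per2 (−0.15) and Cry2 (0.09) for continuous against limited.

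Of 16 tested endothelial targets of Klf2 and Klf4, 0 passed in any comparison. In continuous against water arrays 13 had the lower mean, with a median of −0.08, and Tek, the angiopoietin receptor (−0.17 ± 0.06, adjusted p = 0.196), and Cav1, the caveolar coat protein (−0.14 ± 0.08, adjusted p = 0.366), had the smallest p. Several of these genes, Tek among them, are vascular markers too, so the list is not apart from the marker level above. In limited against water arrays 14 of the 16 had the lower mean, also with a median of −0.08. There Ace had 0.20 and Cav1 −0.19, and in continuous against limited arrays S1pr1 had 0.14 and Ace −0.21.

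Of 11 tested genes associated with Klf9 and Klf15, 0 passed in any comparison. In continuous against water arrays 9 had the lower mean, with a median of −0.06. Prodh, a proline-degrading enzyme that Klf15 induces in muscle and liver, had −0.18 ± 0.06 (adjusted p = 0.158, 9 of 10 continuous arrays below the water mean). Gnmt, a methyltransferase of glycine, had −0.17 ± 0.06 (adjusted p = 0.176). In limited against water arrays Prodh had −0.15 and Bcat2 −0.11, and in continuous against limited arrays Slc2a4 and Gnmt each had −0.09.

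**Figure D4:**
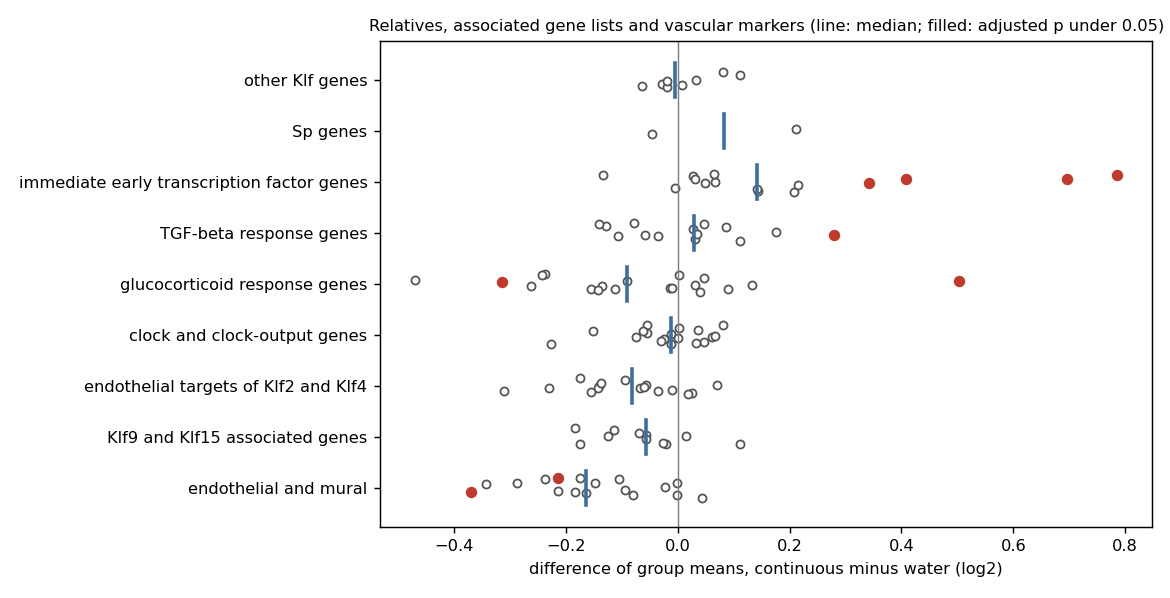
Difference of continuous from water on the log2 scale for each tested gene of the related lists (points, 1 probe set per gene), with the list's median as a line. Filled points passed an adjusted p of 0.05: 4 immediate early genes, Tgif1, Dusp1, Angptl4 and 2 endothelial markers, and no Klf gene.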

How the data were processed

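The deposited values are log2 expression values that the authors made with RMA (robust multi-array average), per the submitters' processing notes, and their log base was read from the range of the values (4.04 to 16.04). The RMA software and its version are not given in the sources used here. RMA brings all arrays to almost the same distribution, which hides any shift common to all transcripts. From 31099 probe sets, 57 control probe sets and the dimmest 30 percent (mean at or below 6.86) were left out, and 21729 were tested. In the platform annotation 20826 probe sets had 1 gene symbol, 436 had several, and 9831 were without one here. All 29 arrays entered 1 fit of limma 3.58.1 in R 4.3.3, with group as the only factor, two-sided tests and Benjamini-Hochberg adjustment. An adjusted p of a gene comes from this limma fit, unless a covariate, array weights or left-out arrays are named beside it. In those cases it comes from a separate limma fit with that change. The adjusted p-values of relations and of differences between probe sets of a gene come from permutation tests. Correlations and exact permutation tests used scipy 1.17.1 and numpy 2.4.6. The fit was tested on simulated data.

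The members and gene lists were chosen with earlier results of these data known. Named were all members, the 3 genes most correlated with each member, and from each list those that passed and the 2 of smallest p, with Fos, Nr4a1, Per1 and Fkbp5 in any case. A gene of a list was read by its brightest tested probe set. There were 41 alternatives, 29 of which left out 1 array. The number of arrays limits the precision.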

Additional observations from a re-analysis of the deposited data

Results flagged for a closer look

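In 48 checks of a probe set within a group, 2 arrays stood apart from the rest of their group, and chance sets about 1 in 20 such groups apart. The Klf2 probe set 1375248_at was 8.24 in continuous replicate 6, below the other continuous arrays, which lay between 8.49 and 8.74. The Klf2 probe set 1386040_at, which was under the filter, was 5.46 in water replicate 3, below the other water arrays at 5.70 to 5.95. Neither value enters a difference that passed, and the cause was not tested.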

How the results depend on the processing

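The count of Klf probe sets past the threshold for continuous against water was 0, and it was 2 with array weights and 3 with the endothelial and mural marker level as a covariate. It stayed at 0 under the other alternatives run, including the fits that left out 1 array each (0 to 0), and so did the counts of both other comparisons under all of them. Over those fits the difference of Klf2 1376569_at ranged from 0.30 to 0.43 and that of Klf4 from 0.23 to 0.37. For limited against water Klf4 ranged from 0.07 to 0.20, Klf6 1387060_at from 0.03 to 0.08 and Klf10 from 0.05 to 0.12. Klf10 ranged from 0.03 to 0.10 for continuous against water (0.0039 with array weights), and Klf9 1370209_at from −0.03 to −0.01 for continuous against limited. Over the whole array the count of 33 became 12 without the 5 arrays that lay apart, 21 with the endothelial and mural covariate, and 18 to 94 with 1 array left out (18 without water replicate 5, 59 without water replicate 8, 66 without limited replicate 6, 94 without water replicate 4). The count of 1 for continuous against limited lay between 0 and 3. The count of 0 for limited against water was 1 with array weights, which was Nr4a1. Klf probe sets at an unadjusted p under 0.05 numbered 5 to 9 over the alternatives for continuous against water, 0 to 3 for limited against water and 0 to 5 for continuous against limited. In the main fit the shares of all tested probe sets were 16.1%, 4.44% and 9.31%. Shares under the alternatives are not given, so these ranges have no baseline. Relations that passed with group means removed were retried, in that form alone, under 32 alternatives chosen after seeing the data. Only Klf4 with vascular markers lost its call. Of the 12 alternatives that do not leave out a single array, 8 ended the call of Slc2a1, 5 that of Tgif1, 3 each those of Adgrl4 and Dusp1 1368147_at, and 2 that of Angptl4, while 6 gave Per2 and 1 gave Fkbp5 a call. With 1 array left out the call ended in 19 of 29 fits for Slc2a1, 5 for Tgif1 and 5 for Dusp1 1368147_at, and Per2 passed in 7. The cause of these changes was not tested.

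The replicate number as a block, used as a pairing of arrays, left 0 Klf probe sets past the threshold and 28 of all probe sets for continuous against water, and 0 of all for continuous against limited. Same-number pairs had r from −0.243 to 0.343 (12 of 28 over 0.1). With no different-number pairs given, a shared batch was not tested.

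Differences that turned sign were small, and the cause was not tested. For continuous against water, the endothelial and mural covariate gave 0.0065 for Klf2 1394068_x_at and 0.0218 for Cav1. Without the 5 arrays that lay apart Klf1 was 0.0058. Per1 was −0.0097 with quantile normalization again, −0.0013 with the RNA quality covariate, −0.0243 without the 5 arrays and −0.0016 with the leptomeningeal covariate, and −0.0191 to 0.0162 with 1 array left out. For limited against water, Klf2 1394068_x_at was 0.0035 without the 5 arrays, 0.0057 with the leptomeningeal and 0.0230 with the endothelial and mural covariate. Klf9 1387882_at was −0.0448 with array weights and −0.0021 with the RNA quality covariate, and Per1 was −0.0191 without the 5 arrays. With 1 array left out, Klf2 1394068_x_at ranged from −0.0465 to 0.0021, Klf6 1388986_at from −0.0101 to 0.0507, Klf9 1387882_at from −0.0458 to 0.0590 and Sp1 from −0.0029 to 0.0275. For continuous against limited, Klf15 1368249_at was −0.0054 with quantile normalization again and −0.0058 with the RNA quality covariate. Klf15 1381396_s_at was 0.0010 with the endothelial and mural covariate. Sp2 was −0.0054 with the RNA quality covariate and −0.0148 without the 5 arrays, and Per1 was 0.0087 with array weights. With 1 array left out, Klf10 ranged from −0.0546 to 0.0067, Klf15 1368249_at from −0.0052 to 0.0239, Klf15 1381396_s_at from −0.0649 to 0.0100, Sp2 from −0.0060 to 0.0801 and Per1 from −0.0645 to 0.0007.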
